A study of Mus musculus with 6 samples.

Results

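The genes that write, erase and read histone marks, together with the Polycomb genes, were examined in LT/ST-HSCs, the long-term and short-term hematopoietic stem cells of mouse bone marrow. They were chosen by symbol, as every gene listed under a numbered Kdm, Setd, Hdac, Cbx or Kat symbol, without genes listed under older symbols. Added to these were Bmi1, Ezh1, Ezh2, Eed, Suz12, Ring1, Rnf2, Asxl1, Ehmt1, Ehmt2, Crebbp and Ep300. This gave 62 of 26216 gene symbols, and 61 of the 62 were among the 13108 symbols in the upper 50% by mean level that were tested. RNA was sequenced from 3 samples of Ltbr-/- (CD45.2) and 3 samples of Ly5.1 (CD45.1) LT/ST-HSCs. The study asked how the lymphotoxin-β receptor (LTβR), encoded by Ltbr, acts in HSCs. Both kinds of cell were sorted from mixed chimeras, in which LSKs (Lin-, sca1+, c-kit+ bone marrow cells) of both donors had been given together to Ly5.1/Ly5.2 mice after lethal irradiation, and were taken 6 weeks later. Cells of 6 chimeras were pooled to 3 replicates, so that a p-value measures the spread between pools. The Ltbr-/- donors are homozygous for an intragenic deletion that all their cells carry, and the labels give donor ages of 13 weeks for replicate 1, 10 weeks for replicate 2 and 10 to 13 weeks for replicate 3. The labels give 7 to 13 weeks for each Ly5.1 replicate.

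Histone marks are set by enzymes that add acetyl or methyl groups to histone tails and by others that remove them. Polycomb repressive complex 2 (PRC2) methylates H3K27 and Polycomb repressive complex 1 (PRC1) ubiquitinates H2A, and both keep developmental genes silent, whereas the deubiquitinase complex PR-DUB takes the ubiquitin off again. In HSCs, Bmi1 and other Polycomb genes are known for their part in self-renewal, and Asxl1 and Ezh2 are mutated in myeloid disease.

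The deposited signal was read as 2 to the power of a regularized log, a normalized log2 level in which weakly expressed genes are drawn towards their mean. No read counts come with it, so the depth is unknown. A difference is given as log2 fold change, the mean log2 signal in Ltbr-/- minus that in Ly5.1, with its standard error (SE). A gene was said to have changed if its p-value from limma, adjusted over all tested genes by the Benjamini-Hochberg method, was under 0.05. Ltbr itself stood at 24.2, 26.4 and 23.1 in Ltbr-/- and at 564, 549 and 522 in Ly5.1. All 8 markers of HSCs were detected, with Kit, the stem cell factor receptor, at 5179 to 5551 in Ltbr-/- and 5849 to 6103 in Ly5.1, and their summed signal was 12872 to 13127 in Ltbr-/- and 14659 to 15133 in Ly5.1. All 8 had a log2 fold change below 0, with a median of -0.17, against 53.6% of all tested genes below 0. The groups were apart in 5, with the lower values in Ltbr-/-, against 13.5% of all tested genes. Of the 8, Ly6a (-0.39) and Cd34 (-0.31) were lower (25%), against 4.18% of all tested genes. All 6 neutrophil markers were lower in Ltbr-/-, against 4.18% of all tested genes. Their summed signal was 28788 to 29332 in Ltbr-/- against 36940 to 39250 in Ly5.1. Of the 5 mast cell and basophil markers, 2 were higher, Cma1 (1.32) and Cpa3 (0.56), against 10.6% of all tested genes. These 2 made up most of the summed signal, which was 7026 to 7417 in Ltbr-/- against 3351 to 3962 in Ly5.1. Mcpt8 (-0.22) and Ms4a2 (-0.04) lay below 0 and did not pass, and Tpsb2 stood at 1 in every sample. Other markers that were higher were Hba-a1 of erythroid cells (0.99), Emr1 (0.83) and Cd68 (0.28) of macrophages, Cd79a of B cells (0.62) and Itga2b of megakaryocytes (0.31). Pf4 of megakaryocytes (-0.33) and Flt3 of multipotent progenitors (-0.28) were lower, and none of the 4 T cell markers was high enough to be tested. In bulk RNA, fewer cells of a type and less RNA per cell cannot be told apart, and the part of these markers in the differences given here was not tested.

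Histone modifier genes differed little between the genotypes, and no gene of the set changed by 1.5-fold or more. Hdac5, a histone deacetylase, and Kdm4b, a histone demethylase, were higher in Ltbr-/- LT/ST-HSCs. Setd5, Cbx1 and Asxl1 were lower. These 5 were 8.2% of the 61, against 14.8% of all tested genes. In the upward direction 2 of 61 changed against 10.6% of all tested genes, and in the downward direction 3 of 61 against 4.18%. Past both thresholds, adjusted p and fold, were 0 of 61 genes of the set and 2.78% of all tested genes. At an unadjusted p under 0.05 there were 17 of 61, against 27.1% of all tested genes. Under quantile normalization 1 gene of the set was higher and 10 were lower, and with a correction for transcript length and GC content 2 were higher and 1 was lower. The count of lower genes was 1 without Ltbr-/- replicate 2 or without Ly5.1 replicate 1 and 5 without Ly5.1 replicate 3, and that of higher genes was 1 without replicate 2 or 3 of either genotype. Without a filter on low values Hdac5 alone passed, and without the sharing of variance between genes in limma none did.

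The direction of the small differences was uneven. The log2 fold change was below 0 in 46 of 61 genes (75.4%), against 53.6% of all tested genes, with a median of -0.10 against -0.01. In 14 of 61 genes (23%) all 3 Ltbr-/- samples lay below all 3 Ly5.1 samples, against 13.5% of all tested genes, and in 4 of 61 (6.56%) they lay above, against 17% of all tested genes. With 3 samples against 3, the smallest p of a two-sided exact permutation test is 0.1. Centring the samples on the ribosomal protein genes, of which 79 of 81 were higher in Ltbr-/-, moved the median of all tested genes to -0.89 and that of the set to -0.97, and put all 61 genes below 0, 60 of them lower at a fold of 1.5 or more.

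**Figure D1:**
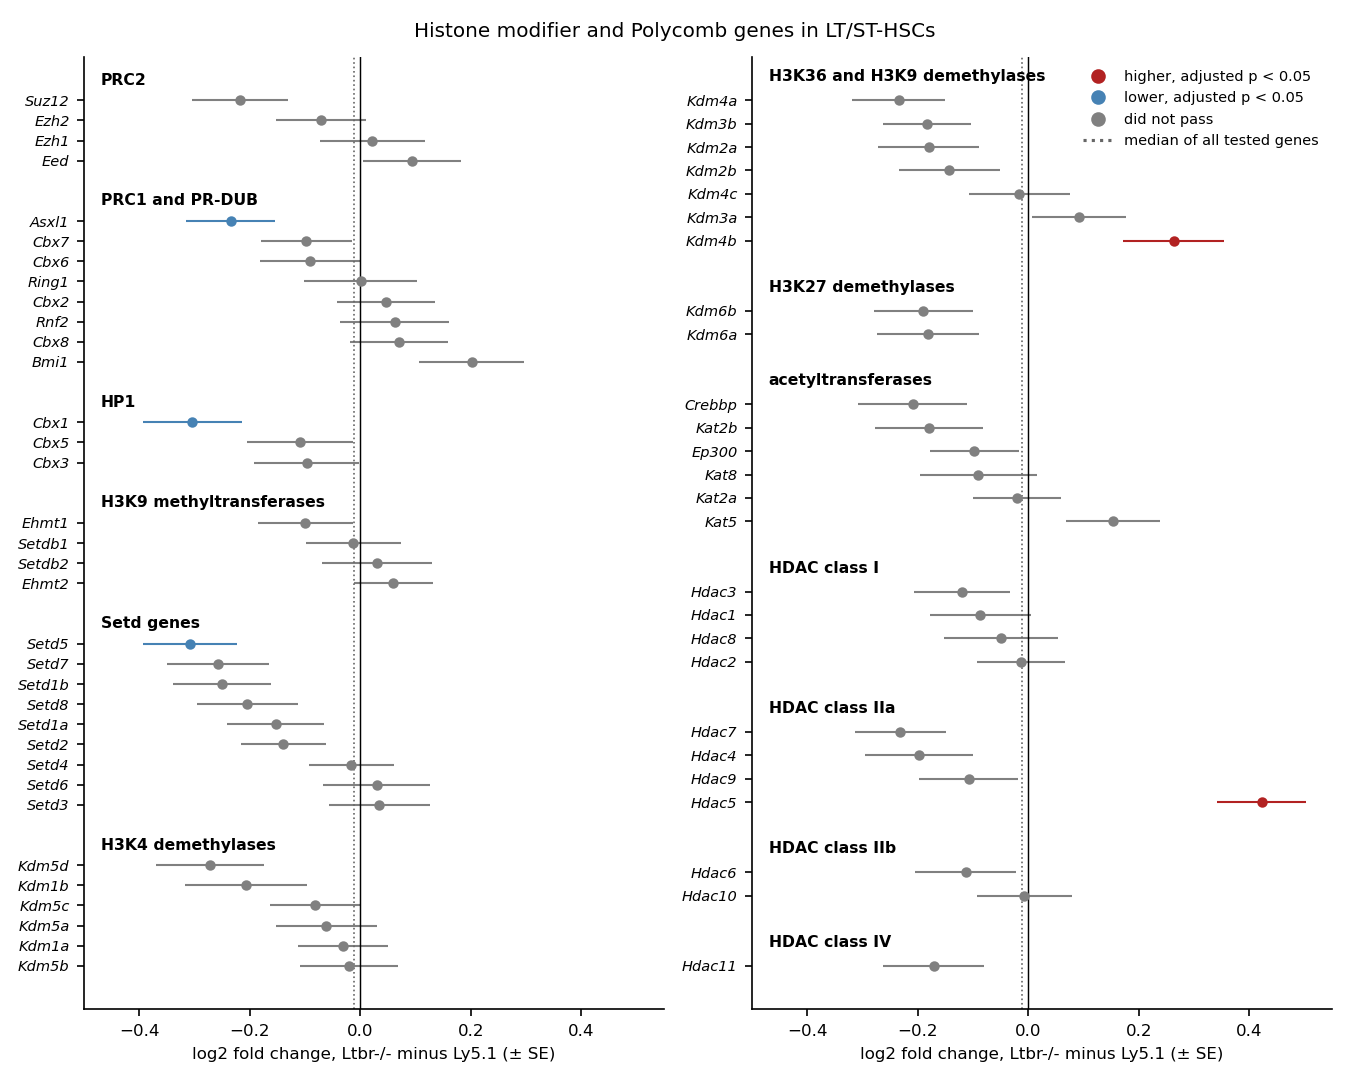
Log2 fold change (Ltbr-/- minus Ly5.1, n = 3 each) of 60 of the 61 tested histone modifier and Polycomb genes by class, with bars for the SE, a solid line at 0 and a dotted line at the median of all tested genes. Most points lie slightly left of 0, and Hdac5 at 0.42 stands furthest to the right, although centring on ribosomal protein genes would put every gene left of 0.

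The start sites of the genes that changed are shown for the clearest higher gene and for a lower Polycomb gene, Hdac5 and Asxl1. Each line gives the 250 bases before the start site in RefSeq (GRCm38.p6), 5′ to 3′ on the strand of the gene. Capitals mark the GC box, the letters GGGCGG or, on the other strand, CCGCCC. The Hdac5 window is chr11:102230173-102230422 on the minus strand, and the Asxl1 window is chr2:153345580-153345829 on the plus strand.
Hdac5: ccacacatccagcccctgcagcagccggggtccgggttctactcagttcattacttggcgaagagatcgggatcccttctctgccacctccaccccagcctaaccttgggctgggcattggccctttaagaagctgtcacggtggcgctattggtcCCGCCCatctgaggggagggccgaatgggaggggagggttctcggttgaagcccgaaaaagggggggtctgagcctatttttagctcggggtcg
Asxl1: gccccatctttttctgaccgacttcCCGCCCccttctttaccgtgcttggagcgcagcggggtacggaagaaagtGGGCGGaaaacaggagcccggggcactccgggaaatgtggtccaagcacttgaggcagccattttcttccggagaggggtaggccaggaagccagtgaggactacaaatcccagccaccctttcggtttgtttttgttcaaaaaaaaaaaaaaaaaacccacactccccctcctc
The Hdac5 window held 1 GC box and the Asxl1 window 2. RefSeq windows were found for 50 of the 62 genes, 67 windows in all, and 39 of the 67 (58.2%) held a GC box on either strand, against 32.7% of 32851 windows of all genes. The E-box CACGTG, which reads the same on both strands, was in 9 of 67, against 6.02% of all windows. The κB consensus, bound by the factors downstream of LTβR, was in 5 of 67 windows, against 7.25% of all. The median number of CpG dinucleotides per window was 20 in the set and 6 over all genes. The windows of all genes were not limited to tested genes, whereas 61 of the 62 genes of the set were tested. No shares over tested genes alone were computed, so these differences cannot be assigned to the set rather than to expressed genes. For Setd5 and Cbx1 the listed start lies 27.7 and 0.455 kb inside the gene as GENCODE draws it, and neither window is shown.

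None of the 4 PRC2 genes passed the test in limma. An unadjusted p under 0.05 was found in 1 of the 4, against 27.1% of all tested genes. Ezh2, the catalytic subunit of PRC2, had signals of 2329.7, 2675 and 2529 in Ltbr-/- and 2613, 2813 and 2484 in Ly5.1. The groups overlapped, with a log2 fold change of -0.07 (SE 0.08, adjusted p = 0.628, limma). Ezh1, its paralog, had 499, 457 and 478 in Ltbr-/- and 487, 506 and 423 in Ly5.1, a difference of 0.02 (SE 0.09). Per kb of transcript, the mean signal of Ezh2 was 901 ± 62.2 in Ltbr-/- and 946 ± 59.5 in Ly5.1 (SD, n = 3), and that of Ezh1 was 114 ± 4.99 and 112 ± 10.4. Within samples the log2 signal of Ezh2 exceeded that of Ezh1 by 2.39 ± 0.16 in Ltbr-/- and 2.48 ± 0.07 in Ly5.1, without a correction for length. Eed, which binds methylated H3K27 and activates the complex, had 1403, 1363 and 1305 in Ltbr-/- and 1165, 1225 and 1439.9 in Ly5.1, again with overlap. Suz12, the scaffold subunit, had 1234, 1141 and 1104 in Ltbr-/- and 1429, 1349 and 1270.4 in Ly5.1. Every Suz12 value in Ltbr-/- lay below every Ly5.1 value, but the log2 fold change of -0.22 (SE 0.09) had an adjusted p of 0.0877. Of 7 accessory PRC2 genes, such as Jarid2 and Mtf2, none passed, and 1 had an unadjusted p under 0.05, against 27.1% of all tested genes. Below 0 were 6 of the 7, with a median of -0.08, against 53.6% of all tested genes.

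Of the 9 PRC1 and PR-DUB genes of the set, 1 (11.1%) was lower, against 4.18% of all tested genes, and none was higher. Below 0 lay 4 of the 9 (44.4%), against 53.6% of all tested genes, with a median of 0.00 for the class. Asxl1, a cofactor of PR-DUB at chr2:153345830-153404007, had 2282, 2107 and 2423 in Ltbr-/- and 2789.8, 2635 and 2579.7 in Ly5.1. All 3 Ltbr-/- samples lay below the lowest Ly5.1 sample, with a log2 fold change of -0.23 (SE 0.08, adjusted p = 0.0439, limma), or 0.85 of the Ly5.1 level. Its call was lost when replicate 1 (-0.24) or 2 (-0.18) of Ltbr-/- or replicate 1 (-0.20) or 2 (-0.24) of Ly5.1 was left out, and with the correction for length and GC content (-0.13) or without a variance trend. Over 19 alternatives its adjusted p ran from 3.95e-23, under the centring on ribosomal protein genes, to 0.284. Bmi1, the PRC1 subunit needed for HSC self-renewal, had 269, 307 and 293 in Ltbr-/- and 269.9, 250.5 and 235 in Ly5.1. Ltbr-/- replicate 1 fell just under the highest Ly5.1 sample, and the log2 fold change of 0.20 (SE 0.09) did not pass (adjusted p = 0.159). Of the Bmi1 transcript, 11.03% of 76-base windows also occur in Gm5946, so its signal may hold reads of that gene.

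The ubiquitin ligases of PRC1 lay close to 0. Ring1 had 459 to 570.3 in Ltbr-/- and 432 to 547 in Ly5.1, and Rnf2 had 450.5 to 585 and 498 to 512. The Cbx proteins of PRC1, which bind trimethylated H3K27, included Cbx2 at 0.05, Cbx6 at -0.09, Cbx7 at -0.10 and Cbx8 at 0.07, and none of these passed the test. Cbx7, the form linked to stem cell maintenance, had 90.9, 82.4 and 83.9 in Ltbr-/- and 105, 82.0 and 89.7 in Ly5.1. The groups overlapped at -0.10 (SE 0.08), and per kb its mean signal of 25.3 ± 1.33 in Ltbr-/- (SD, n = 3) was the lowest of these 4 genes. Cbx6 had the highest of the 4, 126 ± 8.95 per kb in Ltbr-/- and 134 ± 2.42 in Ly5.1.

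Other genes of these complexes were counted for comparison, and their calls were not followed under the alternatives. Of 14 further PRC1 genes, 1 (7.14%) was higher, against 10.6% of all tested genes, and none was lower. The higher gene was Pcgf2, a close relative of Bmi1, with 431, 405 and 500.2 in Ltbr-/- above 315, 374 and 379 in Ly5.1 (log2 fold change 0.32, SE 0.10, adjusted p = 0.0242, limma). Of 8 tested partners of Asxl1 in PR-DUB, all lay below 0 with a median of -0.20, against 53.6% of all tested genes, and 2 (25%) were lower, against 4.18%. Of the 8 transcripts, 6 were 4503 bases or longer, a length class in which 74.0% of all tested genes lay below 0. Ogt, the O-GlcNAc transferase, had 3219, 2831 and 2947 in Ltbr-/- and 3591, 4057 and 3337 in Ly5.1, without overlap (-0.29, SE 0.08). Mbd6, a methyl-CpG-binding-domain protein, had 2020.0, 1883 and 1799 against 2386, 2182 and 2271 (-0.26, SE 0.08). Bap1, the deubiquitinase itself, differed by -0.09 and did not pass (adjusted p = 0.548).

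**Figure D2:**
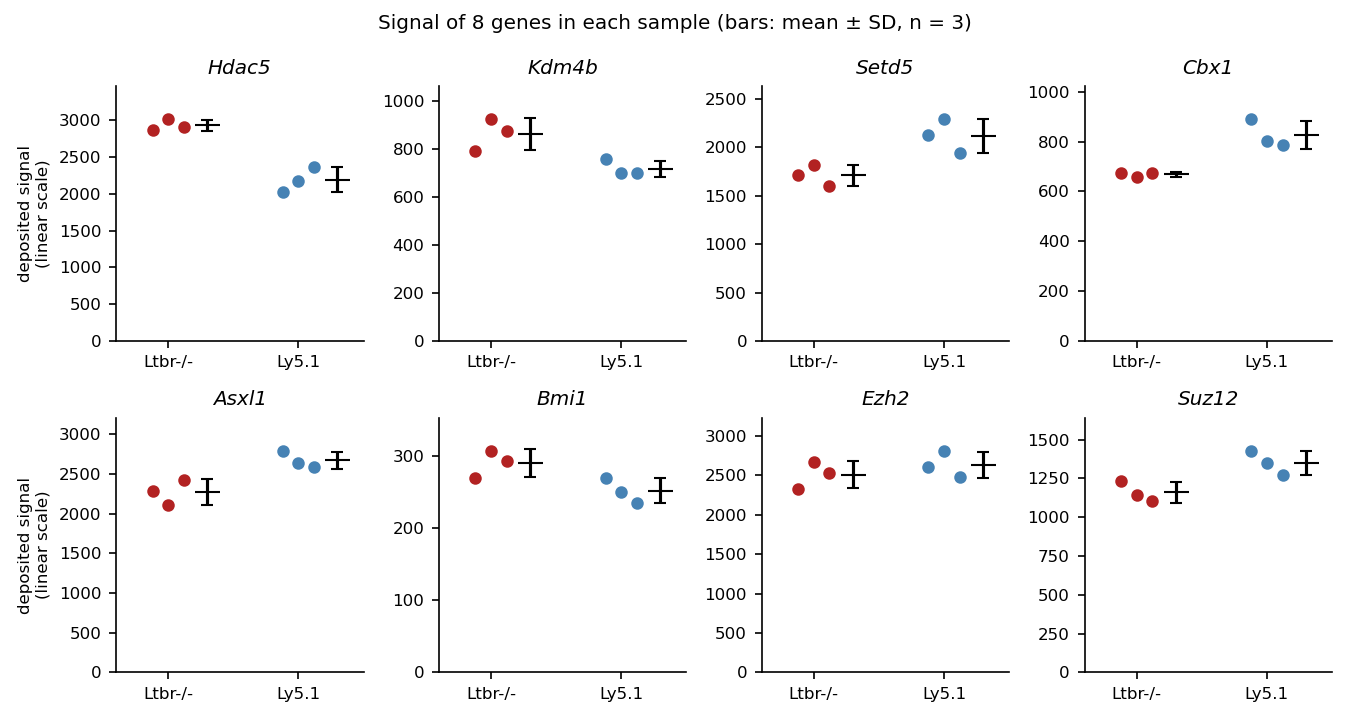
Deposited signal on a linear axis from 0 in each of 3 Ltbr-/- and 3 Ly5.1 samples for 8 genes, with the mean and SD beside the points. The groups are apart in Hdac5, Kdm4b, Setd5, Cbx1, Asxl1 and Suz12, and they overlap in Bmi1 and Ezh2.

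HP1 proteins bind methylated H3K9 and compact chromatin, and all 3 of their genes lay below 0, against 53.6% of all tested genes. Cbx1, which encodes HP1β and lies at chr11:96788680-96808982, was lower in Ltbr-/-. Its signal was 675, 656 and 674 in Ltbr-/- and 890.0, 802 and 787 in Ly5.1. The Ltbr-/- samples were close together and all below Ly5.1, with a log2 fold change of -0.30 (SE 0.09, adjusted p = 0.0171, limma). The call was lost without Ltbr-/- replicate 2 (-0.29) and without Ly5.1 replicate 1 (-0.25), and the adjusted p ran from 4.03e-19, under the same centring, to 0.102 over 19 alternatives. Cbx3 (HP1γ) and Cbx5 (HP1α) differed by -0.10 and -0.11 (SE 0.09 and 0.10) with overlapping groups. Per kb, Cbx1 had a mean signal of 366 ± 5.70 in Ltbr-/- and 453 ± 30.5 in Ly5.1 (SD, n = 3), above Cbx3 at 229 ± 13.1 and 246 ± 19.7 and Cbx5 at 47.3 ± 3.97 and 51.0 ± 3.39. Of the Cbx3 transcript, 22.1% of windows also occur in the pseudogene Cbx3-ps6.

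The H3K9 methyltransferases, which write the mark that HP1 reads, did not pass the test. Their 4 genes ranged from -0.10 to 0.06 around a median of 0.01. None had an unadjusted p under 0.05, against 27.1% of all tested genes. Ehmt2 (G9a) had the highest signal of the whole set, with 5304, 5634 and 5087 in Ltbr-/- and 5349, 4955 and 5068 in Ly5.1. The groups overlapped at 0.06 (SE 0.07, adjusted p = 0.648, limma). Setdb1, which silences endogenous retroviruses, had 1725, 1924 and 1602 in Ltbr-/- and 1876, 1671 and 1740.1 in Ly5.1, a difference of -0.01 (SE 0.09).

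Among the other Setd genes, which carry a SET domain and mostly methylate histones, 7 of 9 lay below 0 and in 5 of 9 the groups were apart, with the lower values in Ltbr-/-, against 53.6% and 13.5% of all tested genes. Of the 9 transcripts, 5 were 4503 bases or longer. The median difference of the 9 genes was -0.15, and 1 (11.1%) was lower, against 4.18% of all tested genes. Setd5, at chr6:113077262-113153432, had 1716, 1818 and 1600.3 in Ltbr-/- and 2126, 2292 and 1944 in Ly5.1. The highest Ltbr-/- sample lay below the lowest Ly5.1 sample, and the log2 fold change of -0.31 (SE 0.08, adjusted p = 0.0102, limma) left 0.808 of the Ly5.1 level. Setd5 lies 12.2 Mb from Ltbr on the same chromosome, and the part of sequence linked to the deletion was not tested. Its call was lost without Ltbr-/- replicate 3 (-0.26), without Ly5.1 replicate 2 (-0.25) and with the correction for length and GC content (-0.21). The adjusted p ran from 8.19e-24, again under that centring, to 0.176 over 19 alternatives.

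Setd7 and Setd1b fell just outside the threshold and passed it in 4 and 5 of 19 alternatives. Setd7, an H3K4 monomethyltransferase, had 345, 324 and 358 in Ltbr-/- and 413, 417 and 397 in Ly5.1, without overlap (log2 fold change -0.26, SE 0.09, adjusted p = 0.0542, limma). Setd1b, the catalytic subunit of an H3K4 methyltransferase complex, had 1101, 1169 and 1046 against 1434, 1204 and 1314 (-0.25, SE 0.09, adjusted p = 0.0507). The gap between the groups of Setd1b was narrow, between 1169 and 1204. Setd2, which trimethylates H3K36, was the Setd gene with the highest signal, with 2670.2, 2576 and 2478 in Ltbr-/- and 2818, 2892 and 2796 in Ly5.1. Its groups were also apart, but at -0.14 (SE 0.08) the difference did not pass (adjusted p = 0.242). Setd3, Setd4 and Setd6 lay between -0.02 and 0.03. In Setd3, 23.9% of windows also occur in Gm14026, so its signal may hold reads of that gene. Of the Setd1a transcript, 53.8% of windows also occur in Gm49388, so that its -0.15 cannot be assigned to one of these genes.

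Of 24 further methyltransferase and cofactor genes, with a median of -0.11, 1 was higher and 1 was lower. Each was 4.17% of the list, against 10.6% higher and 4.18% lower of all tested genes. Ash2l, a core subunit of the H3K4 methyltransferase complexes, had 2238, 2397 and 2277 in Ltbr-/- and 1824, 1776 and 1807 in Ly5.1 (log2 fold change 0.35, SE 0.08, adjusted p = 0.00141, limma). Dot1l, the H3K79 methyltransferase, had 1404, 1358 and 1276 against 1556, 1829 and 1716, with a log2 fold change of -0.33 (SE 0.09, adjusted p = 0.00548). Both were free of overlap, and they moved in opposite directions.

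Of the lysine demethylases, 13 of 15 tested Kdm genes (86.7%) lay below 0, against 53.6% of all tested genes. Most of their transcripts were 4503 bases or longer, a class in which 74.0% of all tested genes lay below 0. These were 5 of 6 H3K4, 6 of 7 H3K36 and H3K9, and 2 of 2 H3K27 demethylases. Of the 15 genes 1 (6.67%) changed, upwards, against 10.6% of all tested genes. Kdm4b, which removes methyl groups from H3K9 and H3K36 and lies at chr17:56325970-56403774, had 791, 923 and 872 in Ltbr-/- and 756, 698 and 697 in Ly5.1. The lowest Ltbr-/- sample lay above the highest Ly5.1 sample, with a log2 fold change of 0.26 (SE 0.09, adjusted p = 0.0452, limma) on the deposited scale and of -0.61, against a median of all genes of -0.89, once centred on ribosomal protein genes. The call was the least stable of the 5, and was lost when replicate 2 (0.21) or 3 (0.25) of Ltbr-/- or replicate 2 (0.24) or 3 (0.24) of Ly5.1 was left out, and under quantile normalization (0.24) and a robust trend. Over 19 alternatives the adjusted p ran from 1.59e-06, where the centring turned the sign, to 0.205. Kdm4a, its paralog, had 1441, 1357 and 1291 in Ltbr-/- and 1671, 1579 and 1558 in Ly5.1. The order of the groups was the opposite one, at -0.23 (SE 0.08, adjusted p = 0.0554), and it passed in 5 of 19 alternatives. Within samples the log2 signal of Kdm4b minus that of Kdm4a was -0.66 ± 0.18 in Ltbr-/- and -1.16 ± 0.02 in Ly5.1 (SD, n = 3). This pair was singled out after its values were seen, and the difference of 0.50 is a description with no test. Kdm4c differed by -0.02, and Kdm4d, at 2.80 to 2.89 in every sample, was too low to be tested.

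Kdm3b, an H3K9 demethylase, had the highest signal among the H3K9 and H3K36 demethylases, with 2285, 2346 and 2096 in Ltbr-/- and 2459.9, 2601 and 2568 in Ly5.1. The groups were apart, but at -0.18 (SE 0.08) it did not pass (adjusted p = 0.126, limma). Among the H3K4 demethylases, mostly long transcripts, all 6 genes lay below 0, between -0.27 and -0.02, against 53.6% of all tested genes. None of the 6 passed, with 1 at an unadjusted p under 0.05, against 27.1% of all tested genes. Kdm1a (LSD1) had 2009, 2355 and 2219 in Ltbr-/- and 2262, 2226 and 2222 in Ly5.1, a difference of -0.03 (SE 0.08) with overlap. The Y-linked Kdm5d had 656, 515 and 515 in Ltbr-/- and 637, 686 and 702 in Ly5.1, so that only Ltbr-/- replicate 1 lay within the Ly5.1 range (-0.27, SE 0.10, adjusted p = 0.0556). Another Y-linked gene, Eif2s3y, was lower in Ltbr-/- at 685, 721 and 681 against 796, 869.7 and 984 (-0.34, SE 0.09, adjusted p = 0.00931), whereas the Y-linked Uty (-0.06, adjusted p = 0.735) and Ddx3y (0.09, adjusted p = 0.568) did not pass and overlapped. Xist stood at 17.4 to 19.1 in all 6 samples. Of the H3K27 demethylases, Kdm6b had 975, 847 and 947 in Ltbr-/- and 1100.0, 1026 and 1027 in Ly5.1. The groups of Kdm6b were apart at -0.19 (SE 0.09) and those of Kdm6a overlapped at -0.18 (SE 0.09), and neither passed (adjusted p = 0.159 and 0.196). Kdm7a and Kdm8, listed under the older symbols Jhdm1d and Jmjd5, were not matched by the rule. They differed by 0.02 and -0.10 and did not pass (adjusted p = 0.927 and 0.465, limma).

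Hdac5 showed the largest difference of the set. Hdac5, a class IIa deacetylase at chr11:102195747-102230172 that shuttles between nucleus and cytoplasm, had 2869.8, 3015 and 2909.5 in Ltbr-/- and 2030.1, 2171 and 2370.1 in Ly5.1. All 3 Ltbr-/- samples lay well above the highest Ly5.1 sample. The log2 fold change was 0.42 (SE 0.08, adjusted p = 0.000147, limma), or 1.34-fold, and turned to -0.45, against a median of all genes of -0.89, once centred on ribosomal protein genes. It passed in each of the 6 fits that left out 1 sample, with 0.37 to 0.48. Over 19 alternatives the adjusted p ran from 8.46e-06 to 0.0622, the latter without sharing of variance between genes. Per kb, the mean signal was 604 ± 15.4 in Ltbr-/- and 451 ± 35.2 in Ly5.1 (SD, n = 3), the highest of the 4 class IIa genes in Ltbr-/-. In Ly5.1 Hdac7 had 459.9 ± 24.9 per kb, which differed from Hdac5 by less than their spread.

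The other class IIa deacetylases lay below 0. Hdac7, known for its role in lymphocytes and vessels, had 1675, 1713 and 1576 in Ltbr-/- and 2050.2, 1940.3 and 1839.6 in Ly5.1. Its groups were apart in the direction opposite to Hdac5, and it fell just outside the threshold at -0.23 (SE 0.08, adjusted p = 0.0533, limma). It was lower in 7 of 19 alternatives, among them quantile normalization, the filter on the upper 25% and the fit without Ly5.1 replicate 3. Within samples the log2 signal of Hdac5 exceeded that of Hdac7 by 0.78, 0.82 and 0.88 in Ltbr-/- and by -0.01, 0.16 and 0.37 in Ly5.1. The pair was chosen after its values were seen, and the difference of 0.65 between the group means is given without a test. Hdac4 and Hdac9 had mean per-kb signals of 26.2 and 17.1 in Ltbr-/- and of 30.1 and 18.5 in Ly5.1, and differed by -0.20 and -0.11 (SE 0.10 and 0.09).

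The class I enzymes are nuclear. All 4 lay below 0 with a median of -0.07, against 53.6% of all tested genes below 0. None had an unadjusted p under 0.05, against 27.1% of all tested genes. Hdac1 had 519.9, 535 and 579 in Ltbr-/- and 553, 595 and 586 in Ly5.1, but 52.3% of the windows of its transcript also occur in Gm10093. Hdac2, with the highest signal of class I, had 2116, 2166 and 2276 in Ltbr-/- and 2192, 2182 and 2240.4 in Ly5.1. Hdac3, the enzyme of the NCoR complex, had 1219.9, 1363 and 1152 against 1306, 1382 and 1362. All 3 overlapped, with log2 fold changes of -0.09, -0.01 and -0.12. Hdac10 of class IIb had 1317, 1358 and 1532 in Ltbr-/- and 1393, 1437 and 1389 in Ly5.1 (-0.01, SE 0.09). Hdac11, the single class IV enzyme, had 185, 181 and 185 against 223, 189 and 209, apart but at -0.17 (SE 0.09) short of the threshold (adjusted p = 0.224, limma). The 7 sirtuin genes, the other family of deacetylases, had a median of 0.02, and none passed the test. Of these 7, 1 had an unadjusted p under 0.05, against 27.1% of all tested genes.

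Class I enzymes act in larger complexes, and of 22 genes for the other subunits 3 (13.6%) were higher, against 10.6% of all tested genes, and none was lower. Sap30, a subunit of the Sin3 complex, had 750.4, 769 and 796 in Ltbr-/- and 444, 544 and 467 in Ly5.1. It was the only one of the 83 companion chromatin genes past both thresholds, at 1.60-fold (log2 fold change 0.68, SE 0.09, adjusted p = 7.07e-07, limma). Sin3b, the scaffold of that complex, had 3360.2, 3414 and 3459 in Ltbr-/- and 2787, 2580.2 and 2653 in Ly5.1 (0.35, SE 0.08). Rcor2, a corepressor that joins HDACs to Kdm1a, had 745, 674 and 619.8 against 584, 544 and 526 (0.30, SE 0.09, adjusted p = 0.0254) and was named after its values were seen. The groups of all 3 were apart. Sin3a, the paralog of Sin3b, differed by -0.19 and did not pass (adjusted p = 0.135). Over all 82 tested companion genes, with a median of -0.09, 5 (6.1%) were higher and 3 (3.66%) lower, against 10.6% and 4.18% of all tested genes.

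Acetyltransferases, which oppose the HDACs, did not pass the test. Of the 6 genes, 1 had an unadjusted p under 0.05, against 27.1% of all tested genes. Below 0 lay 5 of 6, against 53.6% of all tested genes, and 3 of the 6 transcripts were 4503 bases or longer. Crebbp (CBP) had 1462, 1171 and 1122 in Ltbr-/- and 1414, 1644 and 1277 in Ly5.1, with overlap through Ltbr-/- replicate 1 (-0.21, SE 0.10, adjusted p = 0.160, limma). Ep300 (p300), its paralog, had 2179, 2278 and 2153 against 2445, 2441 and 2193 (-0.10, SE 0.08). Kat2a (Gcn5), with the highest signal of the class, had 2534, 2678 and 2420.3 against 2515, 2479 and 2748 (-0.02, SE 0.08). Kat5 (Tip60) was the gene above 0, at 0.15, with groups that were apart. The files list 3 further acetyltransferases under older symbols that the rule did not match. Kat6b, listed as Myst4, was lower, with 582, 578 and 517 in Ltbr-/- and 659, 696 and 686 in Ly5.1 (-0.29, SE 0.09, adjusted p = 0.0286). Kat7, listed as Myst2, had 1009, 1196 and 1096 against 1386, 1213 and 1259 (-0.23, adjusted p = 0.0866), and Kat6a, listed as Myst3, had 2254, 2113 and 1951 against 2461, 2147 and 2036 (-0.07, adjusted p = 0.652).

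**Figure D3:**
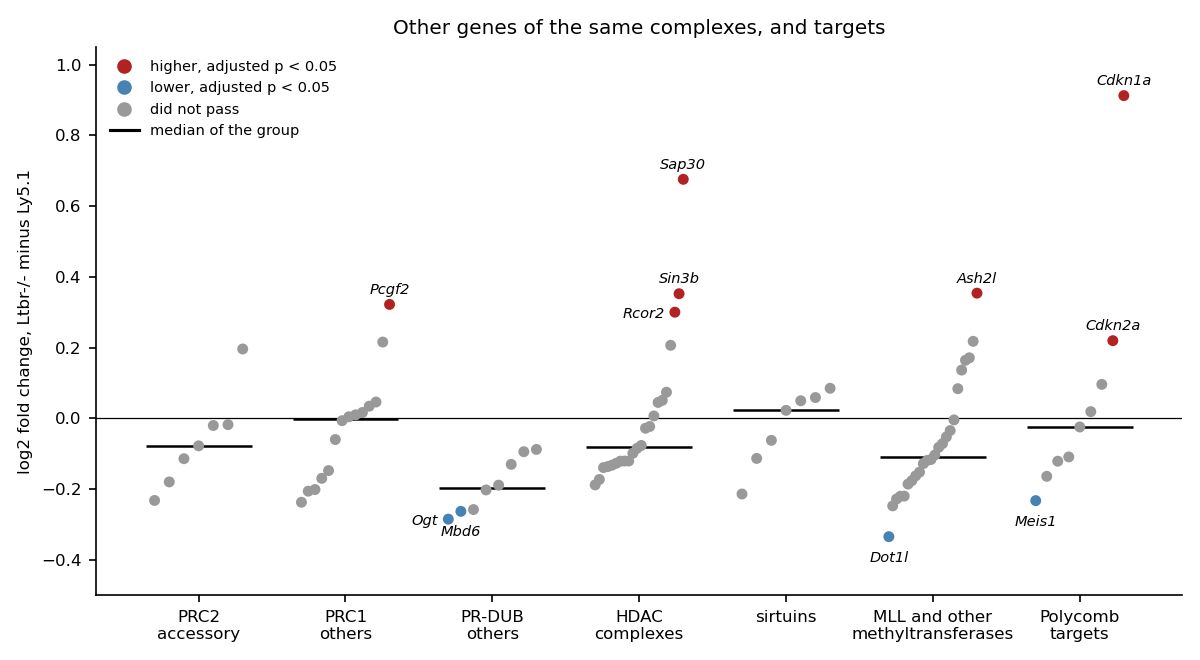
Log2 fold change (Ltbr-/- minus Ly5.1) of tested genes of the same complexes and of known Polycomb targets, with a line at the median of each group. The 8 PR-DUB partners all lie below 0, and Sap30 at 0.68 and Cdkn1a at 0.91 stand highest, on the deposited scale.

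Genes known as Polycomb targets in blood stem cells were counted as a last group. No histone mark was measured, so whether Polycomb acts on them in these cells was not tested. Of 14 such genes 9 were tested, of which 2 (22.2%) were higher and 1 (11.1%) was lower, against 10.6% and 4.18% of all tested genes. Cdkn2a, the locus of p16 and p19 and the best known target of Bmi1, had 83.4, 74.2 and 78.3 in Ltbr-/- and 64.1, 66.6 and 71.9 in Ly5.1. The gap between the groups was narrow, and the log2 fold change was 0.22 (SE 0.07, adjusted p = 0.0346, limma). Its mean level exceeded that of only 19.2% of tested genes. The calls of these targets were not followed under the alternatives. Cdkn2b was listed at 1 in every sample. Cdkn1a, the cell cycle inhibitor p21, had 816, 967 and 1009 against 515, 431 and 539 (0.91, SE 0.10). Meis1, a transcription factor of HSCs, was lower, with 2189.7, 2319 and 2234 against 2693, 2603 and 2627 (-0.23, SE 0.08, adjusted p = 0.0380). The B cell regulators Ebf1 and Pax5, kept silent in HSCs, were too low to be tested.

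Histone modifier genes have long transcripts. Their median length was 4373 bases, against 2984 over the tested genes with a transcript, and 30 of the 61 were in the longest of 4 equal length classes of all tested genes, at 4503 bases or more. Over 12686 genes longer genes had lower log2 fold changes (Pearson's r = -0.37), and over the 61 r was -0.32. Genes are not independent replicates, and both values are descriptions. In this class 27 of 30 genes of the set lay below 0 with a median of -0.15, against 74.0% of all genes there with a median of -0.08. In the 3 shorter classes, 3 of 4, 8 of 12 and 8 of 15 genes of the set lay below 0. After a loess correction for length and GC content, 40 of 61 lay below 0, the median of the set was -0.05 and that of all tested genes was 0.00. Asxl1 and Setd5 no longer passed and Hdac5, Kdm4b and Cbx1 did.

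**Figure D4:**
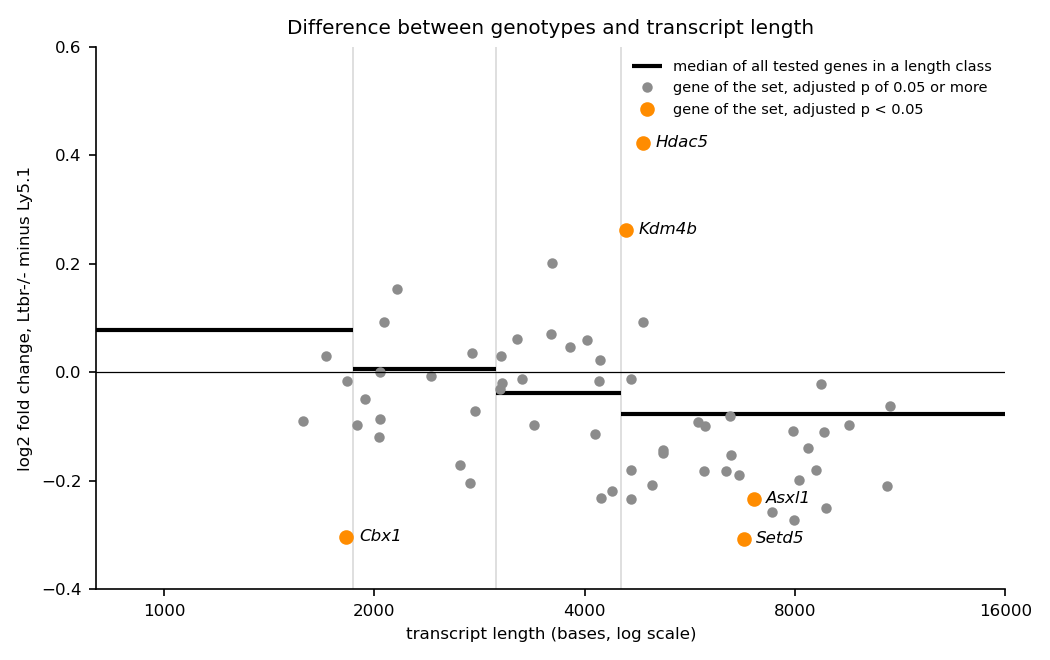
Log2 fold change (Ltbr-/- minus Ly5.1) of the 61 tested genes against transcript length on a log axis, with black lines for the median of all tested genes in each of 4 length classes. Asxl1 and Setd5 lie among the long genes, Cbx1 is short, and Hdac5 and Kdm4b lie far above the median of genes of their length.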

How the data were processed

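RNA of live LSKs of the bone marrow that were CD150+ and CD48- and had been purified by FACS was sequenced by the authors with a stranded poly(A) kit as 76-base single reads. SeqMan NGen and ArrayStar were used by the authors for assembly and quantification, and they deposited 1 signal per gene and sample, in 26595 entries per file. The submitters' processing notes also name DESeq2 and the builds GRCm38 and mm10. That the signal is 2 to the power of a regularized log was inferred from the values and the methods, since no header says so. It includes size factors and shrinkage, which understates differences of weakly expressed genes. Read counts and depth per sample are unknown, so no counting interval or detection limit was computed, and precision rests on 3 samples per group.

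Samples were grouped by the genotype in their labels. Each of 75 repeated symbols was represented by its entry of highest mean. The log2 signal of the upper 50% of symbols was modelled in limma 3.58.1 (R 4.3.3; lmFit, then eBayes allowing for a mean-variance trend), without a pseudocount or block, with Benjamini-Hochberg adjustment, an adjusted p under 0.05 and a fold of 1.5. In simulated data, 200 of 13108 genes were changed, with normal noise at the variances of the same fit. There, 91% of log2 changes of 0.4 were recovered, 100% of those of 0.8, and 6.83% of calls were false. The noise follows the model by construction, and changes under 0.4 were not simulated. These shares therefore do not give the power for the smaller differences of the set. Summaries were computed with Python 3.11.15. One gene of the set is counted but its values are not reported here. Members and lists were chosen with earlier results of these data known. Named with every value were the genes that changed, the gene with the highest signal of each class, 17 genes chosen for their known role, and up to 2 changed companions per list and direction; genes outside this rule, such as Setd7, Hdac7 and Kdm4a, were named after their values were seen. Lengths, positions and windows of 76 bases shared between genes came from GENCODE M21 transcripts, for 62 of 62 genes, and sequences from RefSeq (GRCm38.p6). Alternatives were other filters, scalings, variance models, pseudocounts and fold thresholds, the replicate number as a block, and each sample left out in turn. Single genes were followed under them for the set and for Kat6a and Kat7. The other companions, Polycomb targets and markers were not followed, so their calls may be no firmer than those of the set.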

Additional observations from a re-analysis of the deposited data

How the results depend on the processing

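Between 1 and 5 genes of the set were lower and between 1 and 2 were higher when 1 sample was left out, against 3 and 2 in all samples, and the median of the set lay between -0.11 and -0.066. Without Ltbr-/- replicate 2 or Ly5.1 replicate 1 there was 1 lower gene, and without Ly5.1 replicate 3 there were 5. There was 1 higher gene without replicate 2 or 3 of either genotype. Without a filter on low values 0 were lower and 1 was higher, with the filter on the upper 25% 8 were lower, under quantile normalization 10 were lower and 1 was higher, and with a pseudocount of 8 there were 5 lower. The robust trend gave 1 higher gene. Without moderation limma called 0 lower and 0 higher, although 17 of 61 genes had an unadjusted p under 0.05 in the moderated fit. At a fold of 1.2 there were 4 genes past both thresholds. The correction for length and GC content left 1 lower gene and a median of -0.054. The cause of these shifts was not tested. Centring on ribosomal protein genes gave 61 lower and 0 higher genes, 60 past both thresholds and a median of -0.97, since it moved every gene down by the same amount.

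Some signs turned. Centring on ribosomal protein genes, which moved the median of all tested genes to -0.89, put Hdac5 at -0.45, Kdm4b at -0.61, Ehmt2 at -0.82, Bmi1 at -0.68, Ezh1 at -0.86, Eed at -0.78, and the medians of PRC1 and PR-DUB and of the H3K9 methyltransferases at -0.88 and -0.87. Quantile normalization put Ehmt2 at -0.10 and these same medians at -0.013 and -0.073. The upper 25% filter put these medians at -0.091 and -0.012 and the median of class IIa HDACs at 0.10, from -0.15. That filter kept 49 of the 61 genes, and from these 3 classes it dropped Bmi1, Cbx2, Cbx7, Cbx8, Setdb2, Hdac4 and Hdac9. The 3 medians therefore moved through a change of members, and no single gene turned its sign. After the length and GC correction Hdac2 was at 0.026, Ep300 at 0.023, Setdb1 at 0.056 and Myst3 at 0.042, with medians of -0.0051 for PRC1 and PR-DUB, 0.0095 for PRC2 and 0.0018 for H3K4 demethylases. With 1 sample left out, Kdm1a ran from -0.083 to 0.032, Hdac2 from -0.042 to 0.010, Hdac10 from -0.072 to 0.037, Kat2a from -0.058 to 0.026, Ezh1 from -0.055 to 0.075, Setdb1 from -0.083 to 0.050 and Myst3 from -0.13 to 0.0081. The medians ran from -0.090 to 0.058 for PRC1 and PR-DUB, from -0.084 to 0.022 for PRC2 and from -0.032 to 0.043 for H3K9 methyltransferases.

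The labels do not say whether samples of the same replicate number came from the same chimeras. The deviations of same-numbered samples correlated at 0.03, -0.01 and 0.09, not every sample correlated best with its own number, and the number was therefore not treated as a pairing. With the replicate number as a block, 5 genes of the set were lower and 1 was higher, Kdm4b having an adjusted p of 0.0554 (limma), and Hdac7 and Kdm4a were among the lower genes.

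With 3 samples per group and unknown depth, the SE of 0.07 to 0.11 per gene limits the precision, and shrinkage narrows differences of the lowest genes.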
